A study of Arabidopsis thaliana with 18 samples.

Results

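Aquaporins are channel proteins that let water and some small uncharged solutes cross membranes. Genes of the family were taken as those on the 5 nuclear chromosomes of Arabidopsis thaliana whose deposited description contains "intrinsic protein" or "aquaporin", which gave 37 of the 37916 genes in the expression table. By name they fall into 13 plasma membrane intrinsic proteins (PIP, with 5 PIP1 and 8 PIP2 members), 9 tonoplast intrinsic proteins (TIP), 9 nodulin 26-like intrinsic proteins (NIP), 3 small basic intrinsic proteins (SIP) and 3 short genes of no subfamily. TIP2;1 (AT3G16240) is described as an "integral" protein, so the wording of the rule missed it, and its values are given apart.

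The libraries came from whole seedlings on ½MS medium with 1.2% sucrose, 18 in all, with 3 in each of 6 groups. The genotypes were WT and prmt5, labelled as a PRMT5 T-insert (1 insertion line, with no allele name or background accession given). PRMT5 is a protein arginine methyltransferase. Each genotype was sampled at 22 °C, at the end of 3 days at 37 °C (called heat), and 24 h after those 3 days had ended (called recovery), and the study asked which genes of the heat response depend on PRMT5. Neither the temperature during recovery nor the age of the plants nor the time of day is given in the sources used here. The labels do not tell whether replicate libraries are separate cultures, and p-values therefore cover the spread among these libraries alone, which may be technical.

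PIP proteins sit in the plasma membrane and TIP proteins in the membrane of the vacuole, and together they carry most of the water that moves through plant cells rather than around them. PIP2 proteins conduct water well on their own, whereas PIP1 proteins usually need a PIP2 partner to reach the plasma membrane. NIP proteins conduct boric acid, glycerol and metalloids more than water, and SIP proteins sit in the endoplasmic reticulum. In this species many PIP and TIP genes are known to be repressed by drought and salt, and several are most strongly expressed in roots.

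Sequences are set out for 2 pairs of close relatives whose members moved in opposite directions at heat, 1 pair in WT and 1 in prmt5. PIP2;2 (AT2G37170, chr2:15613368-15615022, minus strand) and PIP2;3 (AT2G37180, chr2:15617635-15619155, plus strand) are neighbours, and their coding sequences are 94.76% identical, with 45 differences over 858 aligned bases. Over the stretch of 75 bases around the codons for the first asparagine-proline-alanine (NPA) motif, the signature of the channel pore, they differ at 0 bases. NIP1;1 (AT4G19030, chr4:10421521-10423508, minus strand) and NIP1;2 (AT4G18910, chr4:10366044-10368510, plus strand) are 84.51% identical in coding sequence and differ at 9 of the 75 bases, which are in capitals. The program RSEM assigned the reads, and how well it divided those that match both genes of a pair cannot be checked here. The split between PIP2;2 and PIP2;3 is therefore the less certain one. The same limit holds for other close members. In coding sequence PIP1;1 and PIP1;2 are 87.57% identical, PIP2;1 and PIP2;2 85.76%, and PIP1;3 and PIP1;4 84.95%. Sequences and positions are from RefSeq, build TAIR10.1.
PIP2;2: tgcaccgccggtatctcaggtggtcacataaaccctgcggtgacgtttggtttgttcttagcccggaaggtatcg
PIP2;3: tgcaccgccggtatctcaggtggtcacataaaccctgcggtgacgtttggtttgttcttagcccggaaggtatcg
NIP1;1: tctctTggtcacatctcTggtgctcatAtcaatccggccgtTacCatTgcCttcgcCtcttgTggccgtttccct
NIP1;2: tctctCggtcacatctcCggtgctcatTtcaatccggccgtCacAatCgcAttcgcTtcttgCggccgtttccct

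Next are the 300 bases before the annotated start of 5 genes, because PIP2;3 and PIP2;5 rose in WT at heat while PIP2;2 fell, and because NIP1;1 and NIP1;2 moved in opposite directions in prmt5. Capitals mark TTCNNGAA, a pair of inverted heat shock element units, read on both strands (the motif is its own reverse complement). It was found in 3 of the 37 members (8.11%), PIP2;3, PIP2;5 and NIP1;2, at 237, 270 and 218 bases before the start, and in 9.38% of 27443 promoters of protein-coding genes of the same length. The other arrangement, GAANNTTC, was found in 5 of 37 members (13.5%) against 11.5% of promoters. ACGTG, the core of the abscisic acid response element, was found in 4 members (10.8%) against 25.6%, and CACGTG, the G-box, which contains ACGTG, in 0 members against 7.09%. The tested members with GAANNTTC, PIP2;7, TIP2;3 and SIP2;1, fell at heat in both genotypes. PIP2;1, PIP2;4, PIP2;6, TIP1;2 and SIP1;1 have neither arrangement in this stretch and rose in WT at heat. Of the members with TTCNNGAA, PIP2;3 fell in prmt5 at heat and NIP1;2 was not called in WT at heat. A match here describes the letters only, and a link between motifs and changes was not tested.
PIP2;2, chr2:15615023-15615322, minus strand: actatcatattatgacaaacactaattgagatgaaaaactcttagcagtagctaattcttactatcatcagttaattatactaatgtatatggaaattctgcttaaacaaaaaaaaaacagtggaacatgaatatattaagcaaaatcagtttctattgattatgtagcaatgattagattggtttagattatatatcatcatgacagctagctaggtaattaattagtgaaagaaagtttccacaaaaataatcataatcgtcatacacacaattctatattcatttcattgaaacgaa
PIP2;3, chr2:15617335-15617634, plus strand: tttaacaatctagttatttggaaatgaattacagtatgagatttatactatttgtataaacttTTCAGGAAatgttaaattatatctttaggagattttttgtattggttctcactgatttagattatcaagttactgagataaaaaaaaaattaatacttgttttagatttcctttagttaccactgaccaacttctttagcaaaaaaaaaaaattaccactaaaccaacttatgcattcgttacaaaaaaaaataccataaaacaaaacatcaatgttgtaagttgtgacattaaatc
PIP2;5, chr3:20301459-20301758, plus strand: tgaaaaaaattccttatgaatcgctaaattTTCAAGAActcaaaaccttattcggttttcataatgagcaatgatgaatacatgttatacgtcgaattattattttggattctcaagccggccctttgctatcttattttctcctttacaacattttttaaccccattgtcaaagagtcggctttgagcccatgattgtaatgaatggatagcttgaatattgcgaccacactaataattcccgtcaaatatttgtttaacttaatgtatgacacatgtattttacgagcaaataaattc
NIP1;1, chr4:10423509-10423808, minus strand: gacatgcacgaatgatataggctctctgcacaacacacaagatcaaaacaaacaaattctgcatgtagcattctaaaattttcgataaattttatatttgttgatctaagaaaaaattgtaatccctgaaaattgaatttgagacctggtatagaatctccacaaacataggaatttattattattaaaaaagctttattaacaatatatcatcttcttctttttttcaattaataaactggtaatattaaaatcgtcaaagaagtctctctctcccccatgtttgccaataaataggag
NIP1;2, chr4:10365744-10366043, plus strand: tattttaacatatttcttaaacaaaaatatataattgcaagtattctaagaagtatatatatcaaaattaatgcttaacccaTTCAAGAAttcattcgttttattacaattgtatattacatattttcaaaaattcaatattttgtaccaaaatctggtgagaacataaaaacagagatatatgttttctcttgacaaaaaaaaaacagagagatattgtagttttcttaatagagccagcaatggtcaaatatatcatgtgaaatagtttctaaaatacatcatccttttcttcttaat

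Levels are in TPM, a transcript abundance that corrects for gene length, so levels of different genes can be compared, and which sets every library to the same total. TPM keeps no read depth, so depth is unknown. PRMT5 itself (AT4G31120) stood at 25.3 to 47.7 TPM over the 9 WT libraries and at 2.32 to 8.87 TPM over the 9 prmt5 libraries, with no overlap in any condition. Library 3 of WT at 22 °C stood apart from its group in a list of 21 root markers, whose summed level was 3221, 3072.1 and 1290 TPM in libraries 1 to 3, and printed calls that change without it are given both ways. Over all groups the root sum was 1290 to 3221 TPM in WT and 1610 to 2130 TPM in prmt5 at 22 °C, 89.5 to 157 and 84.1 to 97.6 TPM at heat, and 1011 to 1832 and 1491 to 1624 TPM at recovery. Most of the sum at 22 °C was 1 gene, PYK10, which averaged 2388 TPM in WT and 1789 TPM in prmt5 there, and 74.1 and 43.8 TPM at heat. Of the 18 tested root markers, 13 fell and 0 rose in WT at heat, against 25.7% and 49.8% of all tested genes. In prmt5 12 fell and 1 rose, against 36% and 45.5%. A list of 8 leaf mesophyll markers summed to 52910 to 58618 TPM in WT and 41868 to 55513 TPM in prmt5 at 22 °C, 3973 to 9219 and 2697 to 3138 TPM at heat, and 5691 to 9964 and 900.4 to 1885 TPM at recovery. RBCS genes made up most of this sum, and RBCS1A alone averaged 18970 TPM in WT at 22 °C. At heat 6 of the 8 fell and 0 rose in WT, and 8 fell in prmt5, where 25.7% and 36% of all tested genes fell. LHCB1.1 and LHCB2.1 were not called in WT at heat, where they averaged 115 and 96.1 TPM against 55.1 and 57.9 TPM at 22 °C. At recovery 6 of the 8 fell in both genotypes, against 17.3% and 24.7%. None of the 21 root or 8 leaf markers was listed at 0 in all 3 libraries of any group. Their part in the results below was not tested. In whole seedlings, fewer cells of a type and less RNA per cell cannot be told apart.

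Changes are differences in log2(TPM + 1) from 1 limma model over 21831 genes with a mean of at least 1 TPM, given with the standard error, and a change is called at an adjusted p under 0.05 (Benjamini-Hochberg, over all genes tested). "Rose" and "fell" are used of called changes only. With TPM the median tested gene itself moved, by 0.35 in WT and 0.19 in prmt5 at heat and by 0.35 and 0.45 at recovery, relative to 22 °C. Median-ratio scaling, which brings these medians to between 0.00 and 0.07, therefore lowers rises and deepens falls. For the member values given here, called directions that it turned and calls that it ended or added are named, as are calls that ended when 1 library was left out, each library in turn.

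The family made up 0.367% of all TPM in WT at 22 °C, and its levels spanned a wide range. TIP1;2 had the highest mean over the 18 libraries, 448 TPM, which placed it in the top 0.778% of all genes, followed by PIP1;2 at 371 TPM, PIP2;7 at 341, PIP2;1 at 328, TIP1;1 at 245 and PIP1;4 at 149 TPM. Below these came PIP2;6, PIP1;3 and SIP1;1 with means of 147, 137 and 108 TPM. Among the NIP genes the highest mean was that of NIP1;2, at 49.5 TPM. In all, 28 members passed the minimum of 1 TPM: the 13 PIP, 5 TIP, 7 NIP and 3 SIP genes.

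The other 9 members were at or near 0 and were not tested. NIP4;1, a gene known from pollen, and the short genes AT2G16835 and AT2G29870 were listed at 0 in the 18 libraries, and AT1G52180 in 17 of them. NIP4;2 reached at most 0.65 TPM in any library. TIP1;3 and TIP5;1, both known from pollen, reached at most 0.92 and 1.47 TPM, in the same WT library at heat. The seed genes TIP3;1 and TIP3;2, which mark protein storage vacuoles, reached at most 0.5 and 0.12 TPM. Summed levels of 5 pollen markers were 1.16 to 18.4 TPM over the groups and those of 10 seed maturation markers 0.49 to 46.22 TPM, the highest in WT at heat.

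Summed over the 37 genes, the family stood far lower at heat in prmt5 than in WT. The sum was 3669 ± 293, 3495 ± 197 and 2037 ± 142 TPM in WT at 22 °C, heat and recovery (mean ± SD, n = 3 libraries, here and for the sums that follow). In prmt5 it was 3997 ± 75.2, 1255 ± 159 and 2148 ± 271 TPM in the same order. At heat this was 95.2% of the 22 °C sum in WT and 31.4% in prmt5, and at recovery 55.5% and 53.7%. With median-ratio scaling the shares at heat were 71.8% and 27.9%, and at recovery 42.4% and 39.1%.

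The subfamilies differed in these sums. PIP genes summed to 2393 ± 179.7, 2132 ± 169.9 and 1299 ± 97.3 TPM in WT at 22 °C, heat and recovery, and to 2604 ± 51.7, 717 ± 117 and 1621 ± 245 TPM in prmt5. Within them the PIP1 sum at heat was 66.2% of its 22 °C level in WT and 11.6% in prmt5, and the PIP2 sum 114% and 42.5%. Median-ratio scaling put the WT value for PIP2 at 86.3%. TIP genes summed to 1085 ± 98.6, 1119 ± 136 and 494 ± 46.2 TPM in WT and to 1218 ± 43.2, 221 ± 65.8 and 239 ± 36.1 TPM in prmt5. The PIP sum in prmt5 was thus higher at recovery than at heat, while the TIP sums of those groups overlapped. TIP2;1, which the wording of the rule missed, is not in these TIP sums. It averaged 118 TPM in prmt5 at heat and 254 TPM at recovery, where the TIP genes counted summed to 239 TPM. The overlap therefore holds for the TIP genes counted and not for all TIP genes.

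In prmt5 at heat the NIP and SIP sums stood above their 22 °C levels, unlike the PIP and TIP sums. NIP genes summed to 67.7 ± 18.8, 52.2 ± 6.07 and 80.6 ± 15.7 TPM in WT, and to 53.3 ± 8.98, 99.2 ± 33.4 and 125 ± 13.1 TPM in prmt5. SIP genes summed to 123 ± 7.46, 190.3 ± 9.07 and 164 ± 4.13 TPM in WT, and to 121 ± 2.91, 218 ± 5.74 and 163 ± 6.16 TPM in prmt5. Each SIP library at heat was above each SIP library at 22 °C in both genotypes. In WT at heat the NIP sum was 77.2% of its 22 °C level, where PIP was at 89.1% and TIP at 103%. Median-ratio scaling put these at 58.5%, 67.3% and 77.7%. The SIP sum in WT was at 154% at heat and 133% at recovery, and at 116% and 101% with median-ratio scaling. Single genes made up most of the NIP and SIP sums in prmt5 at heat. NIP1;2 averaged 90.3 of the 99.2 TPM there, while 1 tested NIP gene rose and 3 fell. SIP1;1 averaged 170 of the 218 TPM, while 1 SIP gene rose and 1 fell. Over all tested genes 45.5% rose and 36% fell.

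**Figure D1:**
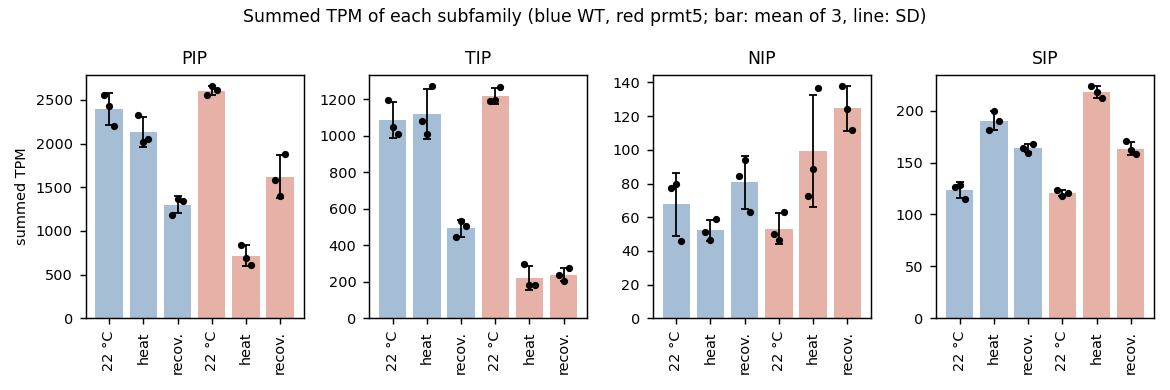
Summed TPM of the PIP, TIP, NIP and SIP genes (vertical axes, each from 0) in the 6 groups, with bars for means of 3 libraries, lines for the SD and points for libraries. The PIP and TIP bars of prmt5 at heat, 717 and 221 TPM, are far below the other heat bars, 2132 and 1119 TPM in WT, while the SIP bars at heat, 190 and 218 TPM, are the highest of their panel.

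Counts of called members stand against a background in which most genes changed. Here and below, shares of all genes are from TPM without further scaling. Counts with median-ratio scaling or quantile normalization therefore have no matching share beside them, and cannot be read against the shares given. In WT at heat, 7 members rose and 13 fell of the 28 tested, where 49.8% of all tested genes rose and 25.7% fell (5 up and 17 down with median-ratio scaling). In prmt5 at heat, 5 rose and 19 fell, against 45.5% and 36%. The genotypes' heat responses differed, by the interaction term, for 19 members, 15 of them lower and 4 higher in prmt5 than the WT response implies, where 33.3% of all genes were lower and 18% higher. The median interaction was -0.82 over the 28 members and -0.19 over all genes.

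At recovery against 22 °C, 7 members rose and 16 fell in WT, where 67.1% of all genes were called, 49.8% upward and 17.3% downward (2 up and 17 down with median-ratio scaling, and 4 up and 16 down with quantile normalization). In prmt5, 9 rose and 13 fell, against 78% called, 53.4% upward and 24.7% downward (5 up and 16 down with median-ratio scaling, and 5 up and 17 down with quantile normalization). The recovery interaction was called for 7 members upward and 6 downward, against 26.1% and 20.1% of all genes, and quantile normalization gave 6 and 9. Between heat and recovery, 7 members rose and 10 fell in WT, against 31.2% and 33.7%, and 16 rose and 4 fell in prmt5, against 43.7% and 28.7%. The comparisons with 22 °C share their 22 °C libraries, and those with heat their heat libraries.

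**Figure D2:**
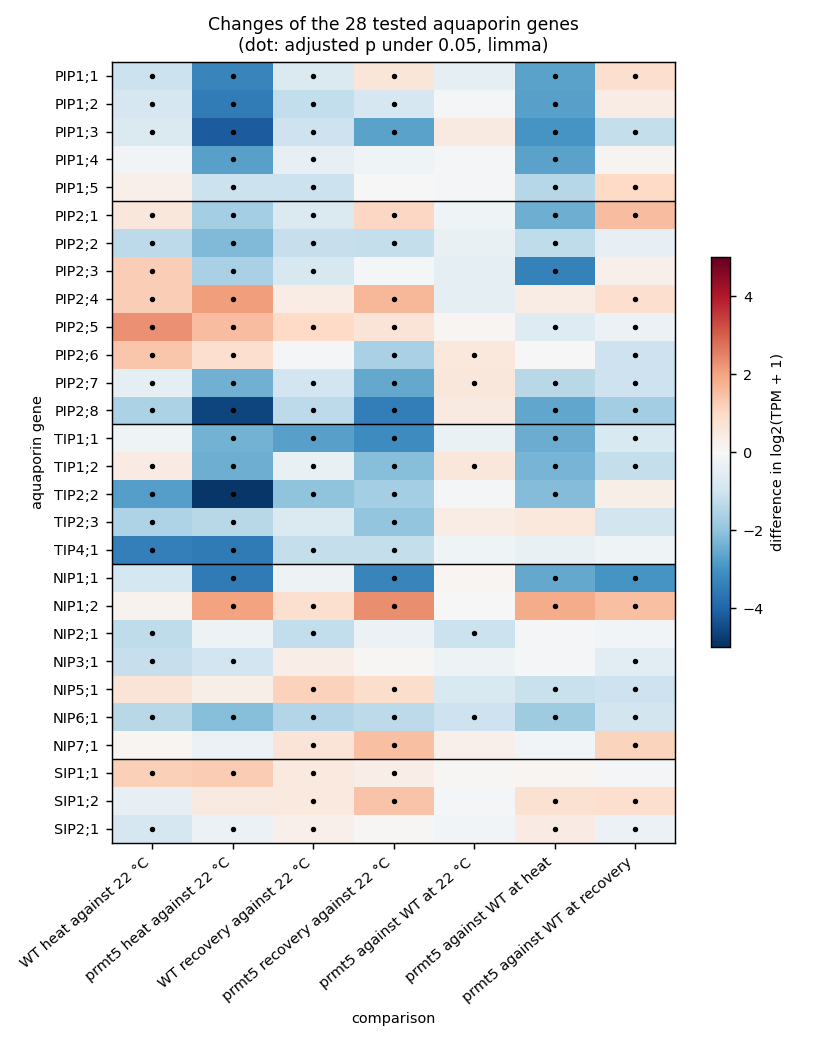
Difference in log2(TPM + 1) (colour, from -5 to 5) of the 28 tested genes (rows, in the order PIP1, PIP2, TIP, NIP, SIP) in 7 comparisons (columns), with dots at an adjusted p under 0.05. The column for prmt5 heat against 22 °C is blue for the 5 PIP1 and 5 TIP genes, with changes down to -4.86, and the column for the genotypes at 22 °C holds 5 dots.

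The 5 PIP1 genes fell at heat in prmt5, and each fell further there than its WT response implies. In WT 3 of the 5 fell, where 25.7% of all genes fell in WT and 36% in prmt5. The median PIP1 change at heat was -0.74 in WT and -3.30 in prmt5. At recovery 5 of 5 were below 22 °C in WT, and in prmt5 1 was above and 2 below (0 and 4 with median-ratio scaling, and 0 and 2 with quantile normalization). Over all genes 17.3% fell in WT, and 53.4% rose and 24.7% fell in prmt5.

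PIP1;1 (AT3G61430) stood at 158, 142 and 94.3 TPM in WT at 22 °C, at 64.7, 60.5 and 54.5 at heat and at 66, 88.2 and 81.6 at recovery. The prmt5 values were 107, 78.1 and 95.8 TPM at 22 °C, 13.7, 7.02 and 6.29 at heat and 143, 123 and 160.4 at recovery. The prmt5 heat libraries lay below every other library, and those of prmt5 at recovery were above those of WT at recovery. It changed by -1.09 ± 0.23 (adjusted p = 0.00056) in WT and -3.30 ± 0.23 (adjusted p = 2.0e-09) in prmt5 at heat, and its heat interaction was -2.21 ± 0.33 (adjusted p = 6.6e-05). Relative to heat it rose by 3.90 ± 0.23 (adjusted p = 6.3e-10) at recovery in prmt5, the largest rise of any member between those groups.

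PIP1;2 (AT2G45960), which is also permeable to carbon dioxide, stood at 626, 619 and 610.1 TPM in WT at 22 °C, at 438, 287 and 337 at heat and at 228, 266 and 296 at recovery. In prmt5 it stood at 618, 592 and 588 TPM at 22 °C, 77.9, 43.1 and 41.6 at heat and 343, 294 and 372 at recovery. The 22 °C libraries of both genotypes were alike, and prmt5 at heat was below all other libraries. The change at heat was -0.83 ± 0.20 (adjusted p = 0.0012) in WT and -3.50 ± 0.20 (adjusted p = 1.1e-10) in prmt5, with an interaction of -2.68 ± 0.28 (adjusted p = 3.0e-06). By recovery the genotypes overlapped (difference 0.35 ± 0.20 (adjusted p = 0.13)), after a fall from 22 °C of -1.24 ± 0.20 (adjusted p = 4.5e-05) in WT and -0.84 ± 0.20 (adjusted p = 0.001) in prmt5.

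PIP1;3 (AT1G01620) stood at 231, 219.9 and 206 TPM in WT at 22 °C, at 157, 113 and 126 at heat and at 102, 118 and 101 at recovery. Levels in prmt5 were 268, 322 and 315 TPM at 22 °C, 27.6, 14.6 and 10.0 at heat and 44.2, 45.1 and 47.9 at recovery. Its heat interaction was the largest of the 28 tested members, -3.41 ± 0.33 (adjusted p = 1.7e-06), from changes of -0.74 ± 0.23 (adjusted p = 0.0093) in WT and -4.15 ± 0.23 (adjusted p = 1.2e-10) in prmt5. At recovery in prmt5 it was still at -2.69 ± 0.23 (adjusted p = 2.8e-08) relative to 22 °C, with every library below every WT one, where PIP1;2 was at -0.84 ± 0.20 (adjusted p = 0.001) and PIP1;4 at -0.21 ± 0.17 (adjusted p = 0.27), or -0.67 (adjusted p = 0.0016) with median-ratio scaling. Its recovery interaction was -1.67 ± 0.33 (adjusted p = 0.00079), and it differed in sign from that of PIP1;1, 1.31 ± 0.33 (adjusted p = 0.0046). These 2 genes are 81.65% identical in coding sequence.

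PIP1;4 (AT4G00430) stood at 192, 196 and 199 TPM in WT at 22 °C, at 181, 172 and 187 at heat and at 141, 149 and 146 at recovery. Its prmt5 libraries stood at 169.6, 200.4 and 189 TPM at 22 °C, 41.3, 21.4 and 22.6 at heat and 161, 138 and 184 at recovery. In WT at heat it did not pass (-0.12 ± 0.17 (adjusted p = 0.54)), and it passed with a fall under median-ratio scaling, -0.53 (adjusted p = 0.0084). In prmt5 it changed by -2.73 ± 0.17 (adjusted p = 5.4e-10), an interaction of -2.61 ± 0.25 (adjusted p = 1.5e-06), and at recovery the prmt5 libraries overlapped those of WT.

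PIP1;5 (AT4G23400) stood at 98.6, 86.4 and 77.2 TPM in WT at 22 °C, at 107, 105 and 96.3 at heat and at 42.8, 42.2 and 38.6 at recovery. In prmt5 the values were 102, 66.4 and 79.2 TPM at 22 °C, 40.2, 36.1 and 37.9 at heat and 83.8, 75.7 and 90.9 at recovery. At heat it stood at 0.24 ± 0.13 (adjusted p = 0.1) relative to 22 °C in WT and -1.07 ± 0.13 (adjusted p = 9.2e-07) in prmt5, an interaction of -1.31 ± 0.18 (adjusted p = 2.9e-05). At recovery the order was turned, since the WT libraries were below the prmt5 ones, and the change from 22 °C was -1.06 ± 0.13 (adjusted p = 2.6e-06) in WT and 0.03 ± 0.13 (adjusted p = 0.81) in prmt5, with an interaction of 1.1 ± 0.18 (adjusted p = 0.00018). With median-ratio scaling the prmt5 value turned to a called fall, -0.42 (adjusted p = 0.017).

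Some smaller PIP1 calls rested on single libraries. The fall of PIP1;1 in WT at recovery, -0.71 ± 0.23 (adjusted p = 0.014), ended without WT 22 °C library 1 or WT recovery library 1 (-0.59 to -0.56, adjusted p up to 0.068), and its rise from 22 °C in prmt5, 0.60 ± 0.23 (adjusted p = 0.029), without prmt5 22 °C library 2 or prmt5 recovery library 1 or 3 (0.48 to 0.59, adjusted p up to 0.11) and under median-ratio scaling, 0.15 (adjusted p = 0.57), and quantile normalization, 0.38 (adjusted p = 0.1). The fall of PIP1;4 in WT at recovery, -0.43 ± 0.17 (adjusted p = 0.041), ended without WT 22 °C libraries 1, 2 or 3 or WT recovery libraries 1, 2 or 3 (-0.45 to -0.40, adjusted p up to 0.095).

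**Figure D3:**
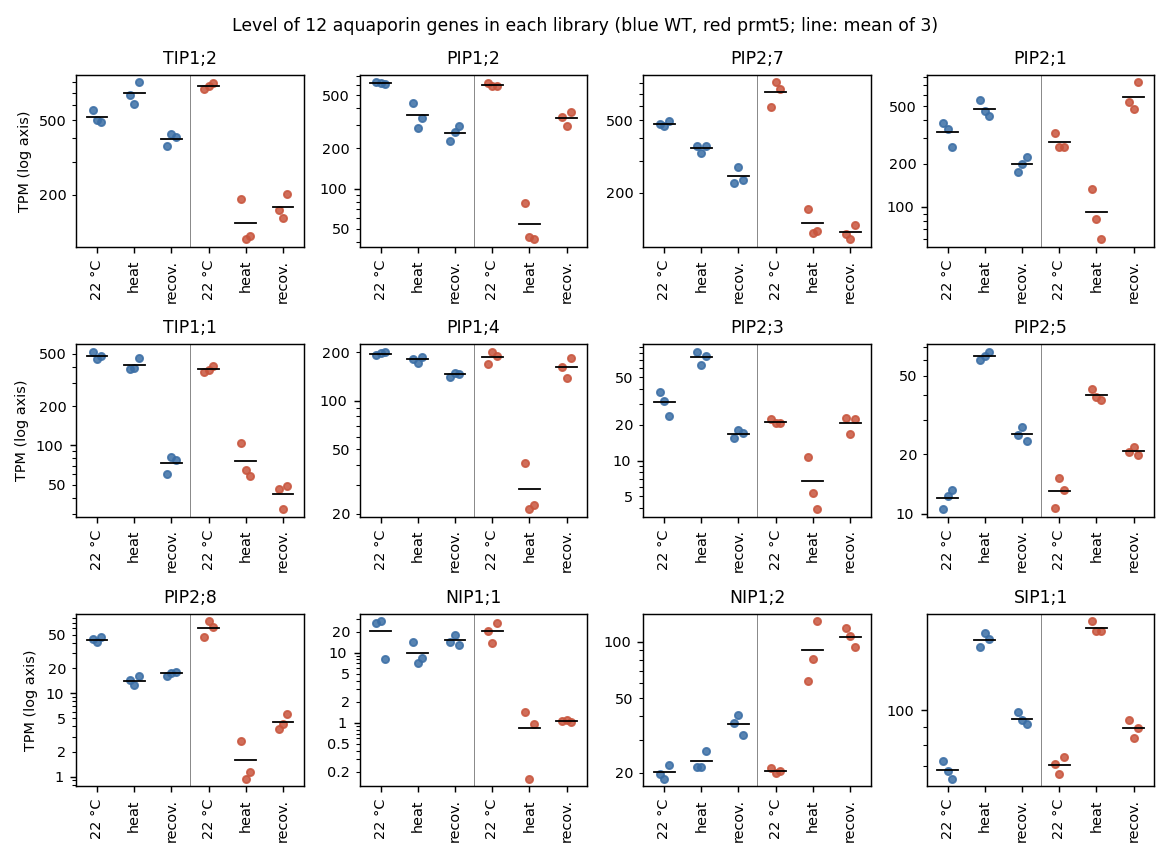
TPM of 12 genes (vertical axes are logarithmic and differ between panels) in every library, blue for WT and red for prmt5, with the mean of 3 as a line. PIP1;2, PIP1;4, PIP2;3 and PIP2;8 have their lowest points in prmt5 at heat, and NIP1;2 has its highest, 128 TPM, in that group.

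The 8 PIP2 genes split at heat. In WT 5 rose and 3 fell (PIP2;2, PIP2;7 and PIP2;8), against 49.8% and 25.7% of all genes. In prmt5 3 rose (PIP2;4, PIP2;5 and PIP2;6) and 5 fell, against 45.5% and 36%. PIP2;1 and PIP2;3 changed in opposite directions in WT and prmt5. At recovery 1 PIP2 gene rose and 5 fell in WT, against 49.8% and 17.3% of all genes. In prmt5 3 rose and 4 fell, against 53.4% and 24.7% (2 up and 4 down with median-ratio scaling, and 2 up and 5 down with quantile normalization).

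PIP2;3 (AT2G37180) stood at 37.3, 31.5 and 23.5 TPM in WT at 22 °C, at 81.5, 62.7 and 75.8 at heat and at 15.3, 18 and 17 at recovery. For prmt5 the levels were 22.5, 20.5 and 20.6 TPM at 22 °C, 10.7, 5.38 and 3.92 at heat and 22.6, 16.6 and 22.4 at recovery. The WT heat libraries were the highest of the 18 and the prmt5 heat libraries the lowest. The change at heat was 1.24 ± 0.24 (adjusted p = 0.00023) in WT and -1.63 ± 0.24 (adjusted p = 1.2e-05) in prmt5, the heat interaction -2.87 ± 0.34 (adjusted p = 9.0e-06), and the difference between genotypes at heat, -3.37 ± 0.24 (adjusted p = 1.9e-08), was the largest of the family in that comparison. Its neighbour PIP2;2, a root aquaporin with nearly the same coding sequence, ranged from 70.8 to 200.1 TPM in WT at 22 °C and from 49.3 to 54.5 TPM at heat. It fell at heat, -1.31 ± 0.30 (adjusted p = 0.00085) in WT and -2.20 ± 0.30 (adjusted p = 4.2e-06) in prmt5 (interaction -0.89 ± 0.42 (adjusted p = 0.088), and -0.45 ± 0.29 (adjusted p = 0.22) without WT 22 °C library 3), and was still low at recovery, -1.15 ± 0.30 (adjusted p = 0.0029) and -1.20 ± 0.30 (adjusted p = 0.0017). The recovery interaction of PIP2;3, 0.76 ± 0.34 (adjusted p = 0.081), passed without that library, 0.93 ± 0.35 (adjusted p = 0.039). As given above, reads of these neighbours may be divided imperfectly.

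PIP2;1 (AT3G53420), a main water channel of roots and guard cells, stood at 379.8, 348 and 262 TPM in WT at 22 °C, at 549, 465 and 427 at heat and at 175, 199 and 221 at recovery. The prmt5 values were 328, 262 and 259.9 TPM at 22 °C, 133, 83 and 59.5 at heat and 538, 475 and 732 at recovery. Every prmt5 heat library was below every other library, and every prmt5 recovery library above every WT recovery library. The heat interaction was -2.23 ± 0.33 (adjusted p = 6.4e-05), from a change in prmt5 of -1.68 ± 0.24 (adjusted p = 6.7e-06). The WT rise at heat was 0.55 ± 0.24 (adjusted p = 0.046), a call that ended without WT 22 °C library 2 or 3 or WT heat library 1 or 2 (0.39 to 0.60, adjusted p up to 0.18), with no minimum level (adjusted p = 0.068) and under median-ratio scaling, 0.14 (adjusted p = 0.61).

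At recovery this gene was below its 22 °C level in WT, -0.72 ± 0.24 (adjusted p = 0.013), and above it in prmt5, 1.02 ± 0.24 (adjusted p = 0.00098). The recovery interaction was 1.74 ± 0.33 (adjusted p = 0.00064), the largest positive one of the family, and the difference between genotypes at recovery 1.53 ± 0.24 (adjusted p = 5.2e-05). The WT fall ended without WT 22 °C library 1 or WT recovery library 1 (-0.64 to -0.61, adjusted p up to 0.055).

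PIP2;5 (AT3G54820), known to be induced by drought and cold, stood at 10.6, 12.3 and 13.2 TPM in WT at 22 °C, at 60.0, 62.6 and 65.9 at heat and at 25, 27.4 and 23.4 at recovery. In prmt5 it stood at 10.8, 15.1 and 13.2 TPM at 22 °C, 42.9, 39.1 and 37.6 at heat and 20.6, 21.7 and 19.8 at recovery. Heat libraries were above all others in both genotypes, and recovery libraries lay between heat and 22 °C. It had the largest rise of the family in WT at heat, 2.30 ± 0.11 (adjusted p = 3.8e-11), and rose by 1.55 ± 0.11 (adjusted p = 1.8e-09) in prmt5, with an interaction of -0.74 ± 0.15 (adjusted p = 0.00097). At recovery the change from 22 °C was 1.01 ± 0.11 (adjusted p = 9.3e-07) in WT and 0.64 ± 0.11 (adjusted p = 6.0e-05) in prmt5, of which the latter ended under median-ratio scaling, 0.21 (adjusted p = 0.087), and quantile normalization, 0.15 (adjusted p = 0.23). Lower values in prmt5 than in WT at heat, -0.64 ± 0.11 (adjusted p = 8.5e-05), and at recovery, -0.27 ± 0.11 (adjusted p = 0.042), did not pass under median-ratio scaling, at -0.25 (adjusted p = 0.05) and -0.19 (adjusted p = 0.14). The recovery difference also ended without WT recovery library 1 or 2 or prmt5 recovery libraries 1, 2 or 3 (-0.31 to -0.22, adjusted p up to 0.15). The recovery interaction, -0.37 ± 0.15 (adjusted p = 0.061), passed without WT 22 °C library 3, -0.44 ± 0.16 (adjusted p = 0.038), and under median-ratio scaling, -0.43 (adjusted p = 0.031).

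PIP2;6 (AT2G39010) stood at 94.3, 95.9 and 99.8 TPM in WT at 22 °C, at 248, 279.7 and 236 at heat and at 96.5, 83.9 and 96.4 at recovery. Levels in prmt5 were 167, 132 and 128 TPM at 22 °C, 246, 283 and 231 at heat and 39.4, 43.6 and 52.7 at recovery. The heat libraries of the genotypes overlapped, and each was above every library at 22 °C and at recovery. It rose at heat by 1.38 ± 0.12 (adjusted p = 3.8e-08) in WT and 0.83 ± 0.12 (adjusted p = 9.1e-06) in prmt5. The interaction, -0.55 ± 0.17 (adjusted p = 0.013), ended under median-ratio scaling, -0.31 (adjusted p = 0.29). At recovery WT was not called against 22 °C (-0.07 ± 0.12 (adjusted p = 0.63)), though with median-ratio scaling it fell, -0.46 (adjusted p = 0.026). In prmt5 the level was below that at 22 °C, -1.63 ± 0.12 (adjusted p = 4.3e-09), with a recovery interaction of -1.56 ± 0.17 (adjusted p = 6.7e-06). Between heat and recovery it had the largest fall of the family in prmt5, -2.46 ± 0.12 (adjusted p = 5.9e-11).

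PIP2;4 (AT5G60660), which is known mainly from roots, stood at 7.23, 6.13 and 3.7 TPM in WT at 22 °C, at 11.3, 15.6 and 17.1 at heat and at 6.25, 7.65 and 8.27 at recovery. Its prmt5 libraries stood at 3.5, 3.18 and 4.6 TPM at 22 °C, 17.5, 16.4 and 23.5 at heat and 16, 14.2 and 11.8 at recovery. Of the prmt5 heat libraries, that at 16.4 TPM lay within the WT heat range, and those at 17.5 and 23.5 TPM lay above it. PIP2;4 rose at heat in WT, 1.25 ± 0.21 (adjusted p = 6.0e-05), and in prmt5, 2.07 ± 0.21 (adjusted p = 1.5e-07), where it had the largest rise of any member. Its recovery level exceeded that at 22 °C in prmt5, 1.66 ± 0.21 (adjusted p = 2.5e-06), and was not called in WT, 0.36 ± 0.21 (adjusted p = 0.14), a difference of 1.30 ± 0.30 (adjusted p = 0.0024). The heat interaction of 0.83 ± 0.30 (adjusted p = 0.029) ended without WT 22 °C library 1 or 2 or WT heat library 1 or prmt5 22 °C library 1 or 2 or prmt5 heat library 3 (0.66 to 0.79, adjusted p up to 0.082).

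PIP2;7 (AT4G35100) stood at 476, 463 and 494 TPM in WT at 22 °C, at 362, 330.5 and 362 at heat and at 226, 277 and 236 at recovery. In prmt5 the values were 589, 806 and 745 TPM at 22 °C, 163, 121 and 123 at heat and 119, 111 and 134 at recovery. It fell at heat in both genotypes, -0.44 ± 0.13 (adjusted p = 0.0056) in WT and -2.39 ± 0.13 (adjusted p = 7.4e-11) in prmt5, with an interaction of -1.95 ± 0.18 (adjusted p = 1.4e-06). The WT value ended under quantile normalization, -0.17 (adjusted p = 0.24). Between heat and recovery in prmt5 it was not called (-0.15 ± 0.13 (adjusted p = 0.3), but a fall of -0.44 (adjusted p = 0.0025) with median-ratio scaling), and the recovery interaction was -1.58 ± 0.18 (adjusted p = 1.0e-05).

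PIP2;8 (AT2G16850), the closest relative of PIP2;7 at 83.99% coding identity, stood at 44.3, 41 and 46.5 TPM in WT at 22 °C, at 14.3, 12.4 and 15.8 at heat and at 16.2, 17.6 and 18.1 at recovery. For prmt5 the levels were 46.8, 72.3 and 62.5 TPM at 22 °C, 2.68, 0.95 and 1.15 at heat and 3.77, 4.3 and 5.58 at recovery. It changed at heat by -1.57 ± 0.21 (adjusted p = 4.1e-06) in WT and by -4.60 ± 0.21 (adjusted p = 8.4e-12) in prmt5, and prmt5 libraries were below all WT libraries at both heat and recovery. The heat interaction was -3.03 ± 0.29 (adjusted p = 1.7e-06) and the recovery interaction -2.17 ± 0.29 (adjusted p = 3.6e-05). The pair thus differed between the genotypes in the same direction in both treatments.

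**Figure D4:**
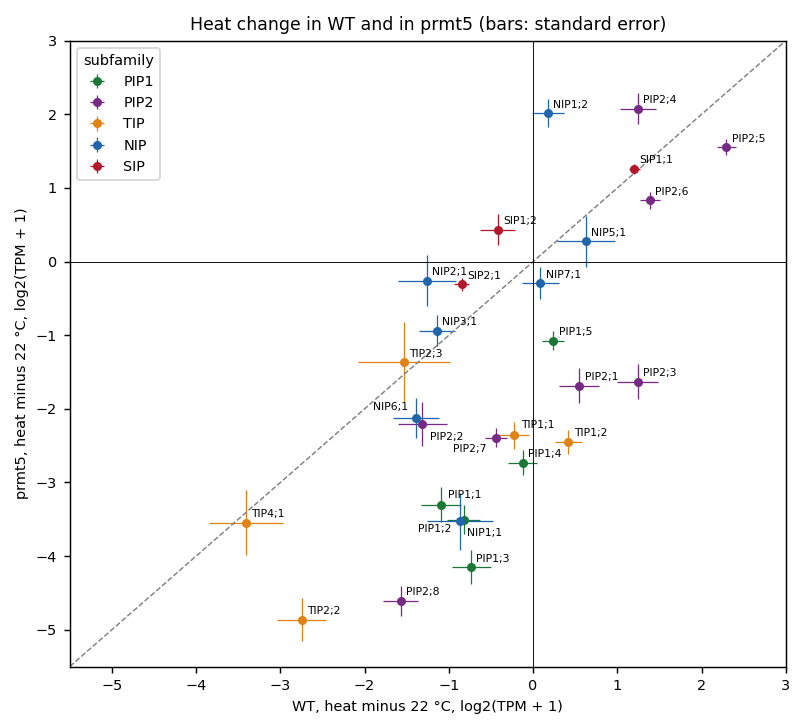
Difference in log2(TPM + 1), heat minus 22 °C, in WT (horizontal) and in prmt5 (vertical) for the 28 tested genes, coloured by subfamily, with standard errors as bars and the line of equal change dashed. PIP1 genes lie far below the line, the lowest at -0.74 and -4.15, while SIP1;1 lies near it (1.20 and 1.26).

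Of the 5 tested TIP genes, 3 fell and 1 rose in WT at heat (4 fell and 0 rose with median-ratio scaling), against 25.7% and 49.8% of all genes. All 5 fell in prmt5, against 36%. At recovery 4 of the 5 were below 22 °C in WT and 5 of 5 in prmt5, where 17.3% and 24.7% of all genes fell. Their median change at heat was -1.53 in WT and -2.45 in prmt5.

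TIP1;2 (AT3G26520) stood at 564, 499.6 and 488 TPM in WT at 22 °C, at 682, 609 and 794 at heat and at 365, 422 and 408 at recovery. The prmt5 values were 733, 764 and 787 TPM at 22 °C, 189.9, 116 and 121 at heat and 166, 151 and 202 at recovery. All WT heat libraries were above the WT libraries at 22 °C, and all prmt5 heat and recovery libraries were below every WT library. The heat interaction was -2.87 ± 0.22 (adjusted p = 3.7e-07) and the recovery interaction -1.77 ± 0.22 (adjusted p = 2.4e-05). In prmt5 the change was -2.45 ± 0.16 (adjusted p = 6.7e-10) at heat and -2.14 ± 0.16 (adjusted p = 4.9e-09) at recovery. The WT rise at heat, 0.42 ± 0.16 (adjusted p = 0.025), ended without WT 22 °C library 2 or 3 or WT heat library 3 (0.32 to 0.40, adjusted p up to 0.11) and under median-ratio scaling, 0.01 (adjusted p = 0.94), and the WT fall at recovery, -0.38 ± 0.16 (adjusted p = 0.047), without WT 22 °C libraries 1, 2 or 3 or WT recovery libraries 1, 2 or 3 (-0.42 to -0.31, adjusted p up to 0.14).

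TIP1;1 (AT2G36830), a widely used marker of the vacuolar membrane, stood at 518, 454 and 479 TPM in WT at 22 °C, at 383, 389.6 and 466 at heat and at 60.7, 81.4 and 77.3 at recovery. In prmt5 it stood at 363, 375 and 402 TPM at 22 °C, 104, 64.9 and 58.3 at heat and 46.9, 32.7 and 48.6 at recovery. WT libraries at heat overlapped those at 22 °C, whereas prmt5 heat libraries were far below. It changed at heat by -0.23 ± 0.19 (adjusted p = 0.27) in WT and by -2.36 ± 0.19 (adjusted p = 7.4e-09) in prmt5, an interaction of -2.13 ± 0.26 (adjusted p = 1.3e-05). With median-ratio scaling the WT change was a called fall, -0.64 (adjusted p = 0.0036). At recovery it fell in both, -2.72 ± 0.19 (adjusted p = 7.6e-09) and -3.14 ± 0.19 (adjusted p = 3.8e-10), and the recovery interaction was not called (-0.43 ± 0.26 (adjusted p = 0.2)). The WT fall came between heat and recovery, at -2.49 ± 0.19 (adjusted p = 1.5e-08), the largest of any member between those groups.

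TIP2;2 (AT4G17340) stood at 82.9, 68.7 and 39.8 TPM in WT at 22 °C, at 11, 5.95 and 8.42 at heat and at 10.1, 18.5 and 15.3 at recovery. Levels in prmt5 were 78.6, 43.8 and 58.2 TPM at 22 °C, 1.53, 0.92 and 0.76 at heat and 16.8, 15.1 and 21.2 at recovery. Every heat library was below every 22 °C library. The change at heat was -2.75 ± 0.29 (adjusted p = 3.9e-07) in WT and -4.86 ± 0.29 (adjusted p = 2.6e-10) in prmt5, with an interaction of -2.12 ± 0.41 (adjusted p = 0.00056). In log2(TPM + 1), which understates falls to near 0, it had the largest fall of any tested member in prmt5. From heat to recovery it rose in prmt5 by 3.18 ± 0.29 (adjusted p = 7.7e-08). The WT rise over the same interval, 0.72 ± 0.29 (adjusted p = 0.04), ended without WT heat library 2 or 3 or WT recovery library 2 or 3 (0.52 to 0.74, adjusted p up to 0.17).

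TIP4;1 (AT2G25810), known mainly from roots, stood at 22.5, 20.0 and 4.49 TPM in WT at 22 °C, at 0.26, 0.51 and 0.19 at heat and at 6.01, 7.84 and 2.71 at recovery. Its prmt5 libraries stood at 12.4, 7.12 and 14.7 TPM at 22 °C, 0, 0 and 0.07 at heat and 4.99, 4.8 and 3.27 at recovery. Heat libraries were near 0 in both genotypes, the groups in which the root marker sum, mostly PYK10 at 22 °C, was also lowest. Of other members known from roots, PIP2;4 rose at heat and PIP2;2 fell in both genotypes. PIP2;1 rose in WT and fell in prmt5, and NIP5;1 was not called in either. TIP4;1 had the largest fall of the family in WT at heat, -3.41 ± 0.44 (adjusted p = 3.7e-06), and changed by -3.54 ± 0.44 (adjusted p = 1.7e-06) in prmt5. Its interaction was -0.14 ± 0.62 (adjusted p = 0.88), and 0.54 ± 0.42 (adjusted p = 0.31) without WT 22 °C library 3. TIP4;1 at heat lay below the 1 TPM added before taking logs, so both falls are understated and the interaction says little about their difference. It rose again from heat to recovery, 2.22 ± 0.44 (adjusted p = 0.00039) in WT and 2.37 ± 0.44 (adjusted p = 0.00016) in prmt5. The fall from 22 °C to recovery in WT, -1.19 ± 0.44 (adjusted p = 0.026), ended without WT 22 °C library 1 or 2 or WT recovery library 3 (-0.89 to -0.81, adjusted p up to 0.14) and became -1.86 ± 0.32 (adjusted p = 0.00014) without WT 22 °C library 3. The same fall in prmt5, -1.17 ± 0.44 (adjusted p = 0.024), ended without prmt5 22 °C library 1 or 3 or prmt5 recovery library 3 (-1.09 to -0.98, adjusted p up to 0.088).

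TIP2;3, the fifth tested TIP gene, reached 9.91 TPM at most and 0.33 TPM in WT 22 °C library 3. Its change in WT at heat, -1.53 ± 0.54 (adjusted p = 0.018), ended without WT 22 °C library 1 or 2 or WT heat library 1 (-1.40 to -0.90, adjusted p up to 0.12) and was -2.42 ± 0.34 (adjusted p = 1.3e-05) without WT 22 °C library 3. In WT at recovery it was -0.71 ± 0.54 (adjusted p = 0.26) with that library and -1.60 ± 0.34 (adjusted p = 0.00085) without it. In prmt5 it changed by -1.37 ± 0.54 (adjusted p = 0.029) at heat, a call that ended without prmt5 22 °C library 2 or 3 or prmt5 heat library 1 or 3 (-1.40 to -1.09, adjusted p up to 0.11), and by -1.98 ± 0.54 (adjusted p = 0.0035) at recovery.

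TIP2;1, which the wording missed, is set beside the TIP members. TIP2;1 (AT3G16240), the delta tonoplast protein, stood at 304, 254 and 321 TPM in WT at 22 °C, at 229.6, 196 and 276 at heat and at 141, 164 and 148 at recovery. In prmt5 the values were 238, 275 and 297 TPM at 22 °C, 125, 121 and 110.0 at heat and 250.1, 253 and 259 at recovery. It changed at heat by -0.33 ± 0.12 (adjusted p = 0.02) in WT and -1.18 ± 0.12 (adjusted p = 1.5e-07) in prmt5 (interaction -0.85 ± 0.17 (adjusted p = 0.00065)), and the WT fall ended under quantile normalization, -0.27 (adjusted p = 0.058). At recovery it was lower in WT, -0.95 ± 0.12 (adjusted p = 4.5e-06), and not called in prmt5, -0.08 ± 0.12 (adjusted p = 0.54) (a fall of -0.54 (adjusted p = 0.00045) with median-ratio scaling), with a recovery interaction of 0.86 ± 0.17 (adjusted p = 0.00073), a sign opposite to that of TIP1;2.

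The 7 tested NIP genes did not move as a group. At heat 3 fell and 0 rose in WT, against 25.7% and 49.8% of all genes. In prmt5 3 fell and 1 rose, against 36% and 45.5%. At recovery 3 rose and 2 fell in both genotypes, against 49.8% and 17.3% of all genes in WT and 53.4% and 24.7% in prmt5. NIP1;2, NIP5;1 and NIP7;1 rose and NIP6;1 fell in each, with NIP2;1 in WT and NIP1;1 in prmt5. Median-ratio scaling gave 1 up and 2 down in WT and 2 up and 2 down in prmt5, and quantile normalization 2 up and 2 down in WT and 2 up and 4 down in prmt5.

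NIP1;1 (AT4G19030), which takes up arsenite, stood at 26, 27.8 and 8.01 TPM in WT at 22 °C, at 14.2, 7.13 and 8.34 at heat and at 14.2, 17.8 and 13 at recovery. For prmt5 the levels were 20.1, 13.6 and 26.4 TPM at 22 °C, 1.44, 0.16 and 0.95 at heat and 1.06, 1.09 and 1.01 at recovery. WT 22 °C library 3, at 8.01 TPM, was far below libraries 1 and 2. All prmt5 heat and recovery libraries were below all other libraries. It fell in prmt5, at -3.53 ± 0.39 (adjusted p = 4.3e-07) at heat and -3.31 ± 0.39 (adjusted p = 1.1e-06) at recovery. In WT at heat it was at -0.87 ± 0.39 (adjusted p = 0.054), and -1.41 ± 0.31 (adjusted p = 0.00088) without WT 22 °C library 3 or -1.24 (adjusted p = 0.0077) with median-ratio scaling. At recovery in WT it was at -0.27 ± 0.39 (adjusted p = 0.55), and -0.82 ± 0.31 (adjusted p = 0.034) without that library. The heat interaction of -2.66 ± 0.55 (adjusted p = 0.00093) became -2.11 ± 0.42 (adjusted p = 0.00082) without that library, and the recovery interaction of -3.04 ± 0.55 (adjusted p = 0.00042) became -2.49 ± 0.42 (adjusted p = 0.00028).

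NIP1;2 (AT4G18910), which carries aluminium as its malate complex, stood at 19.8, 18.7 and 22.1 TPM in WT at 22 °C, at 21.6, 21.4 and 26.1 at heat and at 36.9, 40.6 and 31.7 at recovery. The prmt5 values were 21.3, 19.9 and 20.4 TPM at 22 °C, 61.7, 81.1 and 128 at heat and 118, 108 and 93.7 at recovery. The 22 °C libraries of the genotypes overlapped, and all prmt5 heat and recovery libraries were above every other library. It rose in prmt5 by 2.02 ± 0.19 (adjusted p = 5.3e-08) at heat and 2.31 ± 0.19 (adjusted p = 1.4e-08) at recovery, the latter the largest rise of the family there. In WT it was 0.18 ± 0.19 (adjusted p = 0.4) at heat and 0.82 ± 0.19 (adjusted p = 0.0012) at recovery, of which the second ended under median-ratio scaling, 0.44 (adjusted p = 0.071). The interactions were 1.84 ± 0.27 (adjusted p = 4.7e-05) and 1.50 ± 0.27 (adjusted p = 0.00035). Over the prmt5 series these close relatives, whose sequences are printed above, therefore moved in opposite directions from nearly equal levels at 22 °C, 20.0 and 20.5 TPM on average.

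The 3 tested boric acid channels each followed a course of its own. NIP5;1 (AT4G10380), the channel for boric acid uptake in roots, stood at 13.1, 11.4 and 3.96 TPM in WT at 22 °C, at 9.99, 13.5 and 19 at heat and at 24.1, 26.6 and 12.9 at recovery. In prmt5 it stood at 3.58, 4.66 and 6.07 TPM at 22 °C, 7.26, 5.25 and 5.31 at heat and 10.9, 9.45 and 8.38 at recovery. Library 3 of WT at 22 °C, at 3.96 TPM, was far below libraries 1 and 2. The gene rose in WT at recovery by 1.16 ± 0.35 (adjusted p = 0.008), which became 0.69 ± 0.29 (adjusted p = 0.049) without that library. At 22 °C the genotypes differed by -0.75 ± 0.35 (adjusted p = 0.17), and by -1.22 ± 0.29 (adjusted p = 0.012) without it.

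The uptake channel was lower in prmt5 than in WT at heat, -1.1 ± 0.35 (adjusted p = 0.011), a call that ended without WT heat library 3 (-0.87, adjusted p = 0.057) and under median-ratio scaling, -0.74 (adjusted p = 0.055). At recovery the difference, -1.02 ± 0.35 (adjusted p = 0.02), ended without WT recovery library 1 or 2 or prmt5 recovery library 3 (-0.93 to -0.83, adjusted p up to 0.084). The rise in prmt5 at recovery, 0.89 ± 0.35 (adjusted p = 0.029), ended without prmt5 22 °C library 1 or 2 or prmt5 recovery library 1 or 2 (0.73 to 0.90, adjusted p up to 0.1) and under median-ratio scaling, 0.50 (adjusted p = 0.17).

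NIP6;1 (AT1G80760), a boric acid channel of shoot nodes, stood at 9.08, 11.5 and 9.34 TPM in WT at 22 °C, at 4.03, 2.24 and 3.44 at heat and at 3.87, 4.01 and 1.57 at recovery. Levels in prmt5 were 2.52, 4.5 and 6.52 TPM at 22 °C, 0.29, 0.23 and 0.12 at heat and 1.15, 0.96 and 1.28 at recovery. The 3 WT libraries at 22 °C were above the other 15. It fell at heat in WT, -1.39 ± 0.27 (adjusted p = 0.00025), and in prmt5, -2.12 ± 0.27 (adjusted p = 2.6e-06), and was still low at recovery, -1.46 ± 0.27 (adjusted p = 0.00022) and -1.31 ± 0.27 (adjusted p = 0.0004). It was lower in prmt5 than in WT at each condition: -1.05 ± 0.27 (adjusted p = 0.018) at 22 °C, -1.78 ± 0.27 (adjusted p = 3.2e-05) at heat and -0.90 ± 0.27 (adjusted p = 0.01) at recovery. The first ended without WT 22 °C library 2 or prmt5 22 °C library 1 (-0.96 to -0.76, adjusted p up to 0.075) and the last without WT recovery library 2 (-0.73, adjusted p = 0.051).

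NIP7;1 (AT3G06100), a boric acid channel known from anthers, stood at 0.66, 0.32 and 0.18 TPM in WT at 22 °C, at 0.44, 0.6 and 0.34 at heat and at 1.48, 0.48 and 1.67 at recovery. Its prmt5 libraries stood at 0.67, 0.47 and 0.73 TPM at 22 °C, 0.2, 0.18 and 0.63 at heat and 3.59, 3.16 and 4.21 at recovery. The prmt5 recovery libraries were above all others, of which the highest was at 1.67 TPM. It rose there by 1.52 ± 0.22 (adjusted p = 1.0e-05) relative to 22 °C and by 1.81 ± 0.22 (adjusted p = 1.8e-06) relative to heat. In WT at recovery the rise of 0.64 ± 0.22 (adjusted p = 0.017) ended without WT 22 °C library 3 or WT recovery library 1 or 3 (0.48 to 0.53, adjusted p up to 0.085) and under median-ratio scaling, 0.49 (adjusted p = 0.061), and turned under quantile normalization, -0.02 (adjusted p = 0.94). The recovery interaction of 0.88 ± 0.31 (adjusted p = 0.03) ended without WT 22 °C library 1 or WT recovery library 2 or prmt5 22 °C library 2 or prmt5 recovery library 1 or 3 (0.61 to 0.88, adjusted p up to 0.082), and the WT rise from heat, 0.56 ± 0.22 (adjusted p = 0.036), without WT heat library 1 or 3 or WT recovery library 1 or 3 (0.40 to 0.55, adjusted p up to 0.16).

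NIP3;1 (AT1G31885), which carries arsenite, stood at 1.48, 2.54 and 0.99 TPM in WT at 22 °C, at 0.2, 0.28 and 0.06 at heat and at 2.53, 3 and 1.5 at recovery. In prmt5 the values were 1.12, 1.23 and 1.13 TPM at 22 °C, 0.1, 0 and 0.3 at heat and 1.45, 1.09 and 1.23 at recovery. Heat libraries were below all others in both genotypes, at 0.3 TPM or less. It fell at heat, -1.14 ± 0.21 (adjusted p = 0.00014) in WT and -0.94 ± 0.21 (adjusted p = 0.0007) in prmt5, and rose to recovery by 1.48 ± 0.21 (adjusted p = 1.7e-05) and 1.00 ± 0.21 (adjusted p = 0.00051). At recovery it was lower in prmt5, -0.54 ± 0.21 (adjusted p = 0.037), a call that ended without WT recovery library 1 or 2 or prmt5 recovery library 2 or 3 (-0.54 to -0.40, adjusted p up to 0.16) and under median-ratio scaling, -0.47 (adjusted p = 0.063).

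NIP2;1 (AT2G34390), known to rise when oxygen is short, stood at 6.87, 6.91 and 1.44 TPM in WT at 22 °C, at 0.77, 1.51 and 1.49 at heat and at 1.55, 1.34 and 0.92 at recovery. For prmt5 the levels were 0.99, 1.73 and 1.93 TPM at 22 °C, 0.95, 1.26 and 1.11 at heat and 1.38, 0.71 and 1.07 at recovery. Libraries 1 and 2 of WT at 22 °C stood above all others, and library 3 lay within the range of the other groups. In WT it fell, -1.26 ± 0.34 (adjusted p = 0.0037) at heat and -1.24 ± 0.34 (adjusted p = 0.0049) at recovery, and in prmt5 it was not called (-0.26 ± 0.34 (adjusted p = 0.5) and -0.31 ± 0.34 (adjusted p = 0.43)). Both WT falls ended in fits of only the groups compared (adjusted p = 0.058 and 0.068). Without WT 22 °C library 3 the heat interaction, 1.00 ± 0.49 (adjusted p = 0.099), became 1.57 ± 0.29 (adjusted p = 0.00048), and the recovery interaction, 0.94 ± 0.49 (adjusted p = 0.13), became 1.50 ± 0.29 (adjusted p = 0.00076). A non-coding gene on the opposite strand, AT2G08660, overlaps it over 1432 bases and averaged 6.99 TPM in WT at heat. Whether reads were assigned by strand is not given in the sources used here, so their reads cannot be told apart.

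SIP genes encode channels of the endoplasmic reticulum. At heat 1 SIP gene rose and 1 fell in both genotypes (1 and 2 in WT with median-ratio scaling), against 49.8% and 25.7% of all genes in WT and 45.5% and 36% in prmt5. At recovery 3 of 3 rose in WT (0 with median-ratio scaling and 1 with quantile normalization) and 2 of 3 in prmt5 (1 up and 1 down with both), where 49.8% and 53.4% of all genes rose. SIP1;1 (AT3G04090) stood at 72, 67.5 and 64.4 TPM in WT at 22 °C, at 150.5, 164 and 158 at heat and at 98.6, 94 and 91.2 at recovery. The prmt5 values were 70.7, 66.5 and 74.2 TPM at 22 °C, 177, 167 and 166 at heat and 94.2, 83.6 and 89 at recovery. All heat libraries were above all other libraries. It rose by 1.20 ± 0.07 (adjusted p = 2.5e-10) in WT and 1.26 ± 0.07 (adjusted p = 6.9e-11) in prmt5, and its heat interaction was 0.06 ± 0.10 (adjusted p = 0.64), or 0.30 (adjusted p = 0.016), a called difference, with median-ratio scaling. At recovery it was at 0.47 ± 0.07 (adjusted p = 1.6e-05) in WT and 0.33 ± 0.07 (adjusted p = 0.00031) in prmt5, but under median-ratio scaling at 0.09 (adjusted p = 0.3) and, turned in sign, at -0.12 (adjusted p = 0.13).

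SIP1;2 (AT5G18290) stood at 12.3, 12.2 and 13.7 TPM in WT at 22 °C, at 9.37, 12.5 and 6.67 at heat and at 17.9, 14.4 and 23.4 at recovery. In prmt5 it stood at 13.2, 12.4 and 10.4 TPM at 22 °C, 13.5, 20.5 and 16.1 at heat and 34.8, 39.2 and 27.8 at recovery. The prmt5 recovery libraries were above all others. It rose there by 1.42 ± 0.21 (adjusted p = 1.2e-05), with a recovery interaction of 0.93 ± 0.29 (adjusted p = 0.017), which ended under quantile normalization, 0.79 (adjusted p = 0.062). The heat interaction, 0.85 ± 0.29 (adjusted p = 0.024), ended without WT heat library 3 or prmt5 22 °C library 3 or prmt5 heat library 2 (0.64 to 0.76, adjusted p up to 0.068), and the WT rise at recovery, 0.49 ± 0.21 (adjusted p = 0.049), without WT 22 °C libraries 1, 2 or 3 or WT recovery library 1 or 3 (0.32 to 0.54, adjusted p up to 0.22) and under median-ratio scaling, 0.12 (adjusted p = 0.68). AT5G18300 overlaps it on the other strand over 444 bases and averaged 6.76, 35.0 and 4.02 TPM in prmt5 at 22 °C, heat and recovery.

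SIP2;1 (AT3G56950) stood at 42.4, 49.2 and 36.8 TPM in WT at 22 °C, at 21.4, 23 and 25.2 at heat and at 47.8, 51 and 53.1 at recovery. Levels in prmt5 were 40.1, 39.4 and 36.6 TPM at 22 °C, 32.7, 30.7 and 29.7 at heat and 41.3, 39.1 and 41.4 at recovery. It fell at heat, -0.85 ± 0.09 (adjusted p = 5.4e-07) in WT and -0.31 ± 0.09 (adjusted p = 0.006) in prmt5, with an interaction of 0.54 ± 0.13 (adjusted p = 0.0029), and the WT libraries at heat were the lowest of the 18. The rise in WT at recovery, 0.25 ± 0.09 (adjusted p = 0.028), ended without WT 22 °C library 1 or 3 or WT recovery library 2 or 3 (0.15 to 0.24, adjusted p up to 0.17) and turned under median-ratio scaling, -0.14 (adjusted p = 0.27), and quantile normalization, -0.0027 (adjusted p = 0.98). In prmt5 it rose from heat to recovery, 0.38 ± 0.09 (adjusted p = 0.0017), and was lower than in WT at recovery, -0.31 ± 0.09 (adjusted p = 0.0091), calls that ended under median-ratio scaling, 0.09 (adjusted p = 0.43) and -0.22 (adjusted p = 0.072). AT3G56940, which overlaps it on the other strand over 147 bases, averaged 626 TPM in WT at 22 °C and 318 TPM at heat, and 484 and 94.0 TPM in prmt5.

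At 22 °C few members differed between the genotypes. Of 28 members 3 were higher and 2 lower in prmt5, where 3.64% of all genes were higher and 11.3% lower, and the other 23 did not pass. PIP2;6, PIP2;7 and TIP1;2 were higher in prmt5, by 0.54 ± 0.12 (adjusted p = 0.0073), 0.57 ± 0.13 (adjusted p = 0.0088) and 0.56 ± 0.16 (adjusted p = 0.028). NIP2;1 and NIP6;1 were lower, at -1.08 ± 0.34 (adjusted p = 0.046) and -1.05 ± 0.27 (adjusted p = 0.018). Fitted on these 6 libraries alone, only the TIP1;2 difference passed, and quantile normalization left PIP2;6, PIP2;7 and NIP6;1. The TIP1;2 difference ended without WT 22 °C library 2 or 3 or prmt5 22 °C library 2 or 3 (0.52 to 0.56, adjusted p up to 0.083) and that of NIP2;1 without WT 22 °C library 1 or 2 or prmt5 22 °C library 1 or 2 (-1.14 to -0.80, adjusted p up to 0.2). Without WT 22 °C library 3, NIP2;1 was at -1.65 ± 0.22 (adjusted p = 0.00032), and PIP2;2 and PIP2;4, which did not pass with it (-0.37 ± 0.30 (adjusted p = 0.45) and -0.46 ± 0.21 (adjusted p = 0.16)), were at -0.81 ± 0.22 (adjusted p = 0.023) and -0.70 ± 0.20 (adjusted p = 0.029).

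At heat 17 of the 28 were lower in prmt5 than in WT and 3 higher, where 68.2% of all genes were called, 48.3% lower and 19.9% higher. The 3 higher were NIP1;2, SIP1;2 and SIP2;1. With median-ratio scaling 15 were lower and 5 higher, with PIP2;4, 0.74 (adjusted p = 0.0029), and SIP1;1, 0.51 (adjusted p = 1.0e-05), added to the higher ones. The lower ones were the 5 PIP1 genes, 6 of 8 PIP2, 3 of 5 TIP and 3 of 7 NIP, and the median difference was -1.32 over the members and -0.34 over all genes. At recovery 12 were lower and 7 higher, against 59.7% of all genes called, 31.9% lower and 27.8% higher (9 and 7 with median-ratio scaling). The 7 were PIP1;1, PIP1;5, PIP2;1, PIP2;4, NIP1;2, NIP7;1 and SIP1;2, so that within PIP1 2 genes were higher and 1, PIP1;3, lower, and within PIP2 2 were higher and 4 lower.

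Genes that act on aquaporin proteins were followed as a list of 14 regulators and partners. In WT at heat 10 rose and 2 fell, and in prmt5 7 rose and 4 fell, with median changes of 0.51 and 0.41. Over all genes 49.8% rose and 25.7% fell in WT and 45.5% rose and 36% fell in prmt5, with medians of 0.35 and 0.19. The prmt5 counts at heat were thus near the shares over all genes. Median-ratio scaling gave 6 up and 3 down in WT, with a median of 0.13, and 7 and 4 in prmt5, with a median of 0.26. At recovery 9 rose and 0 fell in WT, and 12 rose and 1 fell in prmt5. Of all genes 49.8% and 53.4% rose and 17.3% and 24.7% fell. These became 3 up and 1 down in WT and 8 up and 2 down in prmt5 with median-ratio scaling. RMA2 (AT4G28270), a relative of the ubiquitin ligase RMA1 that sends PIP2;1 to breakdown, fell in prmt5 at heat, -2.54 ± 0.29 (adjusted p = 6.2e-07), and not in WT, 0.36 ± 0.29 (adjusted p = 0.27), with an interaction of -2.90 ± 0.41 (adjusted p = 3.9e-05). OST1, a kinase that phosphorylates PIP2;1 in guard cells, had a heat interaction of -1.03 ± 0.19 (adjusted p = 0.00044). CPK7, a calcium-dependent kinase that lowers PIP2;1 protein in roots, had one of -1.38 ± 0.20 (adjusted p = 4.8e-05). TSPO, which sends PIP2;7 to autophagic breakdown, rose in WT at heat by 1.25 ± 0.23 (adjusted p = 0.00017) and was at -0.06 ± 0.23 (adjusted p = 0.81) in prmt5.

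Of the other members, VAMP721 and SYP121 averaged higher in prmt5 than in WT at heat and recovery. XND1 was lower in prmt5 at recovery, at 3.16 against 13.1 TPM on average. VAMP721, a vesicle SNARE of the secretory route, rose at heat in WT, 0.63 ± 0.07 (adjusted p = 3.5e-07), and more in prmt5, 1.45 ± 0.07 (adjusted p = 1.1e-11), an interaction of 0.82 ± 0.09 (adjusted p = 6.8e-06). SYP121, a plasma membrane SNARE that helps PIP2;7 to reach the membrane, rose in prmt5 at heat, 0.91 ± 0.13 (adjusted p = 9.5e-06), and at recovery, 1.57 ± 0.13 (adjusted p = 2.1e-08), with interactions of 0.92 ± 0.19 (adjusted p = 0.00077) and 1.1 ± 0.19 (adjusted p = 0.00025). XND1, a NAC factor that lowers root water transport, rose at heat in WT, 1.36 ± 0.19 (adjusted p = 9.9e-06), and prmt5, 1.91 ± 0.19 (adjusted p = 1.4e-07), and had a recovery interaction of -1.45 ± 0.27 (adjusted p = 0.00055).

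Beside the boric acid channels, the borate exporter BOR1 fell in prmt5 at heat, -1.47 ± 0.14 (adjusted p = 8.9e-08), and was not called in WT, -0.23 ± 0.14 (adjusted p = 0.15) (a fall of -0.62 (adjusted p = 6.5e-05) with median-ratio scaling), a difference of -1.23 ± 0.20 (adjusted p = 0.00013). BOR2 was 0.80 ± 0.32 (adjusted p = 0.034) at heat in prmt5, and 0.64 (adjusted p = 0.063) with median-ratio scaling, and BOR4, which exports excess boron, rose at heat in WT, 0.98 ± 0.25 (adjusted p = 0.0023) (but 0.38 (adjusted p = 0.12) with quantile normalization), and in prmt5, 0.71 ± 0.25 (adjusted p = 0.016). Of 13 genes known to respond to water deficit, 8 rose and 2 fell in WT at heat, and 8 rose and 4 fell in prmt5, with median changes of 1.19 and 1.15 (8 up and 3 down, and 8 and 4, with median-ratio scaling). Of all genes 49.8% and 45.5% rose and 25.7% and 36% fell. RD29B, a target of abscisic acid signalling, rose at heat by 4.43 ± 0.18 (adjusted p = 5.7e-12) in WT and 2.43 ± 0.18 (adjusted p = 3.2e-09) in prmt5, with an interaction of -2.00 ± 0.25 (adjusted p = 1.6e-05). LTI30, a dehydrin, was at -0.64 ± 0.37 (adjusted p = 0.12) in WT, or -1.02 (adjusted p = 0.018) with median-ratio scaling, and 2.70 ± 0.37 (adjusted p = 4.6e-06) in prmt5, and its interaction was 3.34 ± 0.52 (adjusted p = 8.7e-05). RD20, a calcium-binding protein of lipid droplets, had interactions of -1.99 ± 0.45 (adjusted p = 0.0017) at heat and 3.03 ± 0.45 (adjusted p = 8.1e-05) at recovery. COR15A, a chloroplast protein of cold acclimation, was higher in prmt5 than in WT at 22 °C, 2.98 ± 0.50 (adjusted p = 0.0013), and fell in prmt5 at heat, -4.49 ± 0.50 (adjusted p = 4.5e-07).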

How the data were processed

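Messenger RNA was selected with oligo-dT and prepared with a TruSeq kit, per the labels. Per the submitters' processing notes, RSEM assigned reads to TAIR10 genes (no version is given). The authors' TPM were deposited for 37916 genes in 18 libraries, plus the authors' group means. TPM keeps no read depth, so count models, intervals and floors were not used, and whether reads were assigned by strand is not given in the sources used here.

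Groups came from the labels. Values were taken as log2(TPM + 1), which understates changes of low genes, for the 21831 genes with a mean of at least 1 TPM. One limma 3.58.1 model (R 4.3.3; lmFit, contrasts.fit, eBayes with trend) fitted a mean for each of the 6 groups, leaving 12 residual degrees of freedom, and gave 11 comparisons. Within WT and within prmt5 the 3 conditions were compared pairwise, the genotypes were compared at every condition, and 2 interaction terms set the prmt5 response to heat or recovery against that of WT. Two-sided p-values were adjusted by Benjamini-Hochberg for each comparison separately. The script was tested on simulated data with known answers. Python 3.11.15 with pandas 2.3.3, numpy 2.4.6, Biopython 1.88 and matplotlib 3.10.9 made tables, sequences and plots.

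Alternatives were median-ratio scaling, quantile normalization, pseudocounts of 0.1 and 5, a minimum mean of 5 TPM or none, only the groups compared, a replicate block, and each library left out in turn. The members and the gene lists were chosen with earlier results of these data known. Values in every library are given for the 6 members with the highest mean, for those past the threshold in an interaction, and for the 3 largest rises and falls of each comparison of 2 groups; list genes are named among the 4 largest changes past the threshold in a comparison. Members were matched to RefSeq TAIR10.1 by gene identifier (37 of 37), and the deposited gene length equals a TAIR10.1 transcript length in 37 of 37. No table of protein sequences was used here.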

Additional observations from a re-analysis of the deposited data

Results flagged for a closer look

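The results below were set apart because the response of prmt5 differed from that of WT, by a test of the difference itself (the interaction term of the limma model, adjusted p under 0.05 over all genes tested). Of all tested genes, 51.3% passed this test at heat and 46.2% at recovery. Of the 28 tested members, 15 were lower and 4 higher at heat, and 6 lower and 7 higher at recovery, so passing it is not particular to the family. Values are differences between the log2 changes, prmt5 minus WT, and comparisons with 22 °C share their 22 °C libraries.

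At heat all 5 PIP1 genes had a lower response in prmt5. PIP1;3 was at -3.41, PIP1;2 at -2.68, PIP1;4 at -2.61, PIP1;1 at -2.21 and PIP1;5 at -1.31. Of the PIP2 genes, PIP2;8 was at -3.03, PIP2;3 at -2.87, PIP2;1 at -2.23, PIP2;7 at -1.95, PIP2;5 at -0.74 and PIP2;6 at -0.55, while PIP2;4 was at 0.83. The vacuolar genes TIP1;2, TIP1;1 and TIP2;2 were at -2.87, -2.13 and -2.12. NIP1;1 was at -2.66 and its close relative NIP1;2 at 1.84. SIP1;2 and SIP2;1 were at 0.85 and 0.54. Of these calls, that of PIP2;6 ended under median-ratio scaling, -0.31 (adjusted p = 0.29). Those of PIP2;4 and SIP1;2 ended in some fits with 1 library left out.

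At recovery the differences ran both ways. Lower in prmt5 than the WT response implies were NIP1;1 at -3.04, PIP2;8 at -2.17, TIP1;2 at -1.77, PIP1;3 at -1.67, PIP2;7 at -1.58 and PIP2;6 at -1.56. Higher were PIP2;1 at 1.74, NIP1;2 at 1.50, PIP1;1 at 1.31, PIP2;4 at 1.30, PIP1;5 at 1.1, SIP1;2 at 0.93 and NIP7;1 at 0.88. The call of SIP1;2 ended under quantile normalization, and that of NIP7;1 in some fits with 1 library left out.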

How the results depend on the processing

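Of 202 called changes of members over the 11 comparisons, 184 stayed called in the same direction under median-ratio scaling, 185 under quantile normalization, 196 with a pseudocount of 0.1, 200 with a pseudocount of 5, 196 with no minimum level and 186 in fits of only the groups compared, and 177 of the 177 that could be compared with a minimum of 5 TPM. With 1 library left out, 1303 of 1404 did, and 0 turned. Calls that turned in sign were SIP2;1 in WT at recovery against 22 °C (-0.14 with median-ratio scaling and -0.0027 with quantile normalization), NIP7;1 in the same comparison (-0.021 with quantile normalization) and SIP1;1 in prmt5 at recovery against 22 °C (-0.12 with median-ratio scaling). The count of members that differed between the genotypes at 22 °C, 5, became 3 with a minimum of 5 TPM, 3 with quantile normalization and 1 in a fit of those groups alone, and 2 (without WT 22 °C library 2) to 7 (without WT 22 °C library 3) with 1 library left out. The other counts, taken over both directions, stayed within 1.5 times. By direction, rises at recovery against 22 °C fell from 7 to 2 in WT (4 with quantile normalization) and from 9 to 5 in prmt5 with median-ratio scaling, and members higher in prmt5 at heat went from 3 to 5. The 16 calls that ended in fits of only the groups compared had adjusted p from 0.051 to 0.26 with the same fold. The cause was not tested.

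Summed levels moved with median-ratio scaling by more than the SD between libraries. In WT at 22 °C, heat and recovery the PIP sums became 2670, 1796 and 1106 TPM, the TIP sums 1211, 941 and 420 TPM and the SIP sums 138, 160 and 140 TPM, and the NIP sum at heat 43.9 TPM. In prmt5 at 22 °C the PIP, TIP, NIP and SIP sums became 3243, 1515, 65.9 and 151 TPM, and the SIP sums at heat and recovery 242 and 148 TPM.

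Replicate numbers are shared between groups, but libraries with the same number did not deviate together. Correlations of their deviations from group means ran from -0.195 to 0.189, across genes that are not independent replicates, and 4 of 18 libraries correlated best with their own number. With the replicate number as a block, 200 of 202 calls stayed. The fall of NIP2;1 in prmt5 against WT at 22 °C (-1.08, adjusted p = 0.059) and the rise of SIP1;2 in WT at recovery (0.49, adjusted p = 0.057) did not.

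Depth is unknown, so members near 0 could not be given a detection limit, and 3 libraries a group limit the precision. How well reads were divided between PIP2;2 and PIP2;3, or between other close relatives, cannot be checked here. How they were divided between genes on opposite strands is not given in the sources used here.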
